A study of Arabidopsis thaliana with 10 samples.

Results

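In leaves of Arabidopsis thaliana moved from light exciting chiefly photosystem I (PSI light) to light exciting chiefly photosystem II (PSII light), 74 genes had a transcript ratio above 1 at every time sampled. They were chosen by that property: the deposited ratio of condition to reference exceeded 1 in each of the columns for 30 min, 2 h, 8 h and 48 h of PSII light. Of 644 genes with a spot of their own on the filter, 588 had a value at all 4 times, 80 of these met the rule (13.6%), and 6 genes (AT1G51350, XERICO, DI21, NTRC, AT4G39690 and AT4G32060) were left out by name. Because the 4 PSII light values chose the genes, these values are described without a test. The other 6 columns were not used in the choice.

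All plants were of the accession Col-0. They were grown on soil for 21 days in white light on short days (8 h light, 16 h dark), and kept for 3 days in PSI light before sampling of the reference and the move to PSII light. The opposite shift, from PSII light to PSI light, was sampled in the same way at 30 min, 2 h, 8 h and 48 h. Plants acclimated to white light served as a further control, with 1 column filed under each shift. Each time point rested on 3 independent experiments with material of 250 to 500 pooled plants, but the table holds 1 value per spot and condition, so no ratio has an error and no difference between columns was tested. The source names speak of thylakoid membranes, whereas the extraction protocol and the design text describe RNA of whole leaf material. Ratios carry no expression level, so the tissue could not be checked against marker genes.

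Light that favours photosystem II fills the plastoquinone pool between the photosystems with electrons, and light that favours photosystem I drains it. In plants the redox state of this pool is known to drive state transitions, in which light-harvesting proteins are redistributed between the photosystems through the kinase STN7. It is also known to influence the expression of photosynthesis genes in the chloroplast and in the nucleus. Thioredoxins, which receive electrons from photosystem I, form a further known route from electron transport to enzymes and gene expression.

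The sources do not state which way the ratio runs. Here the light condition is taken as numerator and the pre-shift plants as denominator, and every "above" and "below" turns round if that reading is wrong. The median ratio over all features lay between 0.588 (48 h, PSII light) and 1.26 (48 h, PSI light), so the side of 1 on which a typical gene lay differed between columns. The share of all genes above 1 is therefore given beside each count, and the count against the column median follows. The reference behind each white light column is unknown. A spot listed at 0 was treated as having no value. This touched 3 members: AT4G02580 had no value at 30 min, 2 h and 48 h of PSI light or in that shift's white light column, FZL had none at 2 h of PSI light, and AT1G49850 had none at 8 h of PSI light.

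The geometric mean ratio of a member over the 4 PSII light columns ran from 1.12 to 2.60, with a median of 1.52. The median member stood at 1.37 times the reference after 30 min, 1.70 after 2 h, 1.58 after 8 h and 1.52 after 48 h. Over all genes with a spot of their own the medians were 0.833, 0.916, 1.15 and 0.556 at the same times. Most members were only moderately above the reference. At 1 or more of the 4 times 26 members were 2-fold or more above it (5.61% of all genes), and 15 members stayed under 1.5-fold throughout. AT4G16410 was the only member at 2-fold or more at all 4 times (5 of 588 genes, 0.850%, which includes genes left out by name). The members at 2-fold or more numbered 4 at 30 min (1.29% of all genes), 23 at 2 h (4.63%), 13 at 8 h (2.99%) and 11 at 48 h (2.83%). These shares count the members and the genes left out by name. Among the genes that did not meet the rule, 0 were at 2-fold or more at 30 min, 2 h and 48 h, and 1 at 8 h. Since the rule used these columns, nothing is read from the counts.

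AT3G52070 had the highest mean, with ratios of 1.94, 3.39, 2.59 and 2.69 from 30 min to 48 h of PSII light. It was at 2.30 in the white light column of that shift. Its PSI light ratios were 0.549, 0.424, 1.61 and 0.907 from 30 min to 48 h, and at 1.52 in the white light column. AT3G52070 was thus the member lowest of all at 2 h of PSI light, and above the reference at 8 h.

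AT4G38040 followed with 1.71, 3.28, 3.11 and 1.90 in PSII light and 3.59 in the white light column. Its values in PSI light were 0.551, 1.26, 0.326 and 0.951, with 1.10 in white light. AT4G16410 had 2.13, 2.68, 2.10 and 2.59 in PSII light. Its 4.93 in white light of that shift was the highest ratio of a member there, and it also stood at 1.86 in the other white light column. In PSI light AT4G16410 was at 0.562, 0.743, 1.71 and 0.964.

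AT2G46300 had 2.19, 2.80, 2.72 and 1.82 in PSII light and 3.24 in white light. The PSI light ratios were 0.434, 0.544, 0.344 and 1.38, the lowest of all members at 30 min, with 0.934 in white light. It was the only member 2-fold or more below the reference in more than 1 column. AT2G31800 had 1.65, 2.95, 2.42 and 2.52 in PSII light and 3.08 in white light. Its ratios in PSI light were all below 1, at 0.823, 0.689, 0.942 and 0.878, and its second white light value was 1.23.

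The remaining members among the 10 with the highest means were AT-HF, AT2G18920, AT3G50180, NdhS and AT2G46190, with mean ratios from 2.01 to 2.17. AT2G18920 stood at 1.64, 2.32, 2.28 and 2.23 in PSII light and at 3.24 in white light. In PSI light it lay close to the reference at every time, at 1.06, 1.05, 1.06 and 1.16, with 0.976 in white light. AT2G46190 had 1.62, 2.15, 2.20 and 2.13 in PSII light, 1.27 in white light, and 0.614, 1.01, 0.838 and 1.68 in PSI light, with 1.33 in white light.

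**Figure D1:**
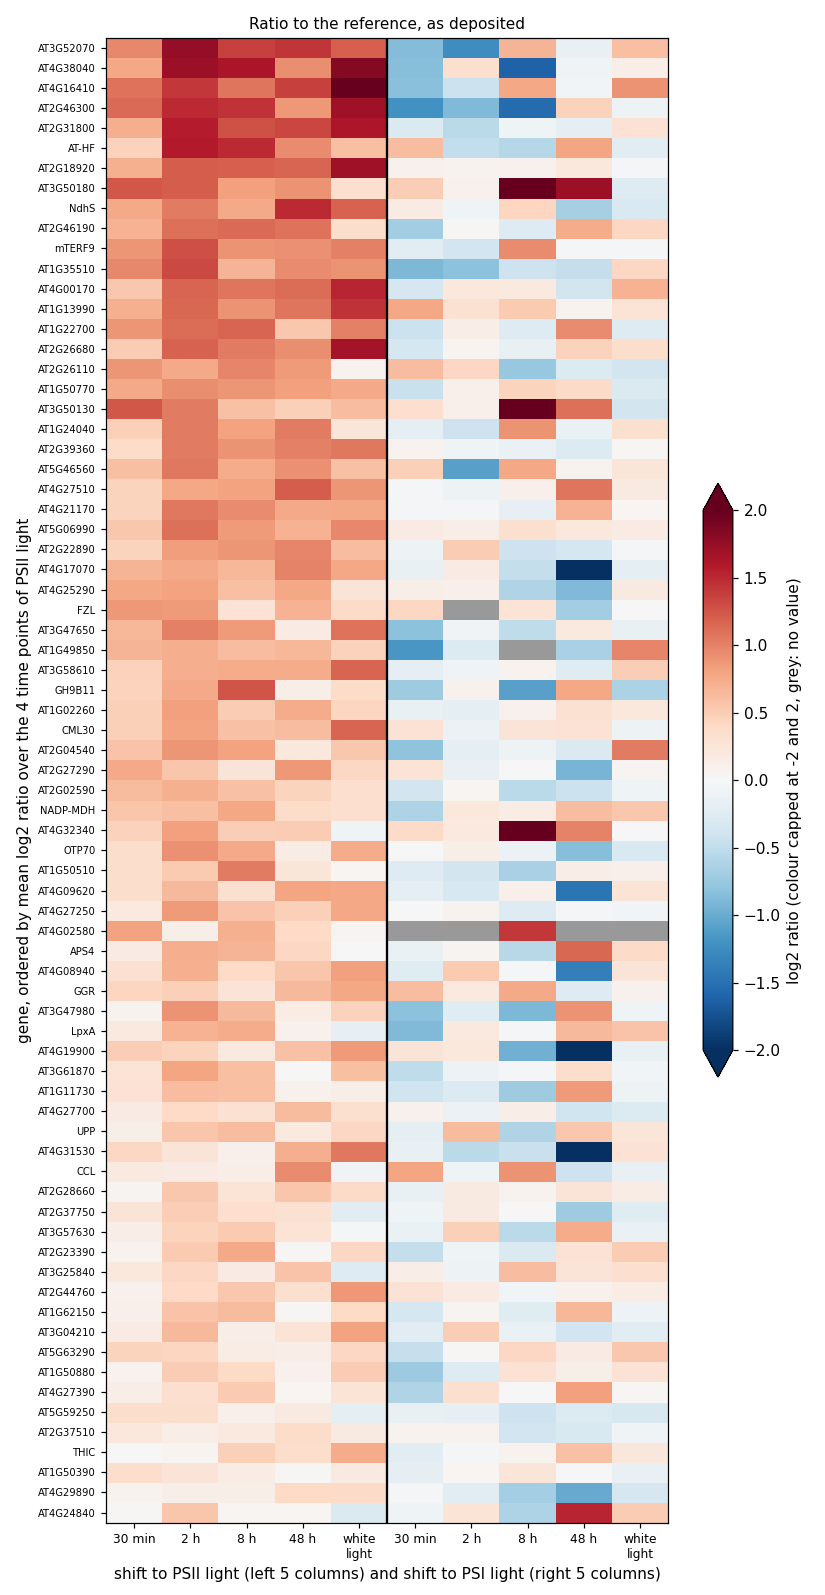
Deposited log2 ratio of each of the 74 members (rows, ordered by mean log2 ratio over the 4 time points of PSII light) in the 10 columns, red above and blue below the reference, grey where there is no value. The left 4 columns are red throughout because they chose the genes, the fifth (white light) is above the reference for 65 members, and the 5 columns of the shift to PSI light hold both colours.

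The time of the highest value depended on how the columns are centred. As deposited, 37 members had their highest PSII light ratio at 2 h, 16 at 48 h, 14 at 8 h and 7 at 30 min, whereas 448 of 588 genes had it at 8 h. Relative to the column medians, 66 members had it at 48 h, 6 at 2 h, and 1 each at 8 h and 30 min, against 223 of 588 genes at 48 h. The ratio at 2 h exceeded that at 30 min in 61 of 74 members, and in 75.7% of all genes with both values. Between 8 h and 48 h the members parted evenly, with 37 higher at 48 h and 37 not, while 10.7% of all genes were higher at 48 h. If the ratios of the 4 times share 1 reference value, which is not stated, these orders do not depend on it. They do depend on how the columns are scaled, and they use the values that chose the genes.

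Several members met the rule narrowly. The smallest ratio was 1.01 for THIC at 30 min, and 1.01, 1.01, 1.02 and 1.02 for AT3G61870, AT2G23390, AT1G62150 and AT1G50390, each at 48 h. Just outside, AT3G16310 had 0.999 at 48 h, AT3G06870 0.987 at 30 min, AT1G79480 0.985 at 8 h, AT2G26100 0.982 at 30 min and AT2G39100 0.981 at 48 h. Of the 62 genes that missed the rule at exactly 1 time, 48 missed it at 48 h, 12 at 30 min, 2 at 8 h and 0 at 2 h. The 48 h column, with the lowest median, therefore set the size of the group. Relative to the column medians 63 of the 74 were above at all 4 times (24.3% of all genes were). At 8 h alone 49.6% of all genes were above the median, and the other 11 members were below it, namely AT4G19900, AT4G24840, AT1G50390, AT5G59250, AT3G04210, AT2G37510, AT4G29890, CCL, AT3G25840, AT4G31530 and AT5G63290.

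The gene table gives a functional name to 14 of the 74 members, and the other 60 have a locus number or clone name only. Annotation classes were read from gene symbols and synonyms alone, which placed only 27 of the 644 genes in any class, 4 of them members. By these names the oxidoreductases held 3 members among 7 genes (NdhS, the NADP-dependent malate dehydrogenase and geranylgeranyl reductase), and the hydrolases 1 among 5 (GH9B11). No member was among the 4 genes placed by name in the photosynthesis class, the 3 chaperones, the 2 kinases or the 2 proteases. Members made up 11.5% of all genes, so 0 in classes this small is not read as an absence. Names miss genes of a class: the pentatricopeptide class held 0 genes, although OTP70 encodes such a protein. With so few named genes no class can be called typical of the group.

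Of the members linked to chloroplast electron transport, NdhS is the subunit of the chloroplast NADH dehydrogenase-like complex at which ferredoxin docks, and this complex feeds electrons back into the plastoquinone pool. NdhS had 1.69, 2.06, 1.70 and 2.82 in PSII light, the highest 48 h ratio of any member, and 2.27 in white light. In PSI light it had 1.11, 0.947, 1.35 and 0.628, with 0.814 in white light. The other measured genes of this complex and its factors did not meet the rule, which only 13.6% of all genes met. NdhN had 0.632, 0.635, 1.06 and 0.542 in PSII light, and the editing factor CRR21 had 0.729, 0.850, 1.22 and 0.464. The medians of all genes were 0.833, 0.916, 1.15 and 0.556, and nothing is read from the contrast with NdhS, which the rule chose. CRR41 and PIFI had values from 0.648 to 1.21 at these times.

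The NADP-dependent malate dehydrogenase (AT5G58330), a thioredoxin-regulated enzyme that exports reducing power from the chloroplast as malate, had 1.47, 1.52, 1.70 and 1.29 in PSII light and 1.26 in white light. The enzyme was at 0.654, 1.16, 1.11 and 1.53 in PSI light, and at 1.45 in its white light column. Geranylgeranyl reductase (AT1G74470), which makes the phytyl tail of chlorophyll and tocopherol, had 1.34, 1.39, 1.2 and 1.57 in PSII light and 1.72 in white light. It was above the reference at 30 min, 2 h and 8 h of PSI light too, with 1.53, 1.14 and 1.69, and below it at 48 h with 0.836, and its second white light value was 1.06. NdhS and geranylgeranyl reductase thus lay below the reference at 48 h of PSI light, and the malate dehydrogenase above it.

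A group of 3 members serves chloroplast membranes and gene expression. AT5G55580 encodes mTERF9, a chloroplast protein of the family of mitochondrial transcription termination factors, and had 1.84, 2.43, 1.87 and 1.88 in PSII light and 2.02 in white light. In PSI light it was at 0.861, 0.768, 1.93 and 0.981. FZL, a dynamin-like protein that shapes thylakoid membranes, had 1.82, 1.81, 1.22 and 1.62 in PSII light and 1.31 in white light, and its 3 values in PSI light were 1.33 (30 min), 1.2 (8 h) and 0.619 (48 h).

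OTP70, a pentatricopeptide repeat protein needed for splicing of a chloroplast transcript, had 1.27, 1.88, 1.69 and 1.11 in PSII light and 1.67 in white light. In PSI light OTP70 was at 0.999, 1.08, 0.925 and 0.557. All 3 of these genes were below the reference at 48 h of PSI light, where 73.4% of all genes were above it, and mTERF9 was below it by the least. Of all members with a value there, 34 of 73 were below it. OTP85, another organelle transcript processing factor on the filter, had 0.687, 0.874, 1.03 and 0.530 in PSII light. It did not meet the rule, which 13.6% of all genes met.

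Enzymes of biosynthesis made up 5 of the named members. AT-HF (HISN4) catalyses a step of histidine synthesis and had 1.38, 2.99, 2.83 and 1.92 in PSII light, 1.52 in white light, and 1.53, 0.713, 0.672 and 1.74 in PSI light. APS4, an ATP sulfurylase that activates sulfate, had 1.12, 1.65, 1.60 and 1.33 in PSII light and 0.994 in white light. In PSI light APS4 had 0.915, 1.04, 0.683 and 2.21. Both of these enzymes were below the reference after 8 h in PSI light and above it after 48 h, which is the side of 83.8% and 73.4% of all genes.

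THIC, which makes the pyrimidine part of thiamine, was at 1.01, 1.03, 1.39 and 1.28 in PSII light, so that it stood clear of the reference only from 8 h, and at 1.68 in white light. In PSI light it had 0.855, 0.976, 1.05 and 1.51. UPP, the uracil phosphoribosyltransferase of pyrimidine salvage, had 1.08, 1.47, 1.53 and 1.15 in PSII light, 1.33 in white light, and 0.885, 1.55, 0.658 and 1.46 in PSI light. LpxA, named for the bacterial acyltransferase of lipid A synthesis, had 1.14, 1.63, 1.68 and 1.06 in PSII light, 0.895 in white light, and 0.544, 1.14, 0.976 and 1.57 in PSI light. All 5 biosynthesis genes were above the reference at 48 h of PSI light, on the side of most genes in that column.

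The remaining 3 named members have no shared role. CML30, a calmodulin-like calcium sensor, had 1.39, 1.75, 1.5 and 1.54 in PSII light and 2.24 in white light, and in PSI light it had 1.22, 0.918, 1.19 and 1.22. GH9B11, a glycosyl hydrolase of the family that includes cellulases of the cell wall, had 1.35, 1.70, 2.40 and 1.09 in PSII light and 1.29 in white light. In PSI light GH9B11 was at 0.614, 1.06, 0.474 and 1.71. Its measured relatives GH9B12, GH9B8 and GH9B16 had 0.648, 0.301 and 0.195 at 48 h of PSII light. In that column 83.3% of all genes were below the reference. After 8 h of PSII light GH9B12 (1.11) and GH9B16 (1.5) were above it and GH9B8 (0.709) below, with 77.3% of all genes above. After 2 h they had 1.03, 0.926 and 0.972 in the same order, and after 30 min these relatives were below it. In PSI light all 4 genes were below the reference after 8 h and above it after 48 h, as were 83.8% and 73.4% of all genes.

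CCL, a gene under circadian control whose transcript is known to be short-lived, was at 1.13, 1.12 and 1.10 in the first 8 h of PSII light and at 1.94 at 48 h. Its white light ratio was 0.949. In PSI light CCL had 1.72, 0.947, 1.87 and 0.747, the highest member at 30 min. CML41, the other calmodulin-like gene measured, had 0.965, 0.902, 1.05 and 0.838 in PSII light. It did not meet the rule either, which 13.6% of all genes met.

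**Figure D2:**
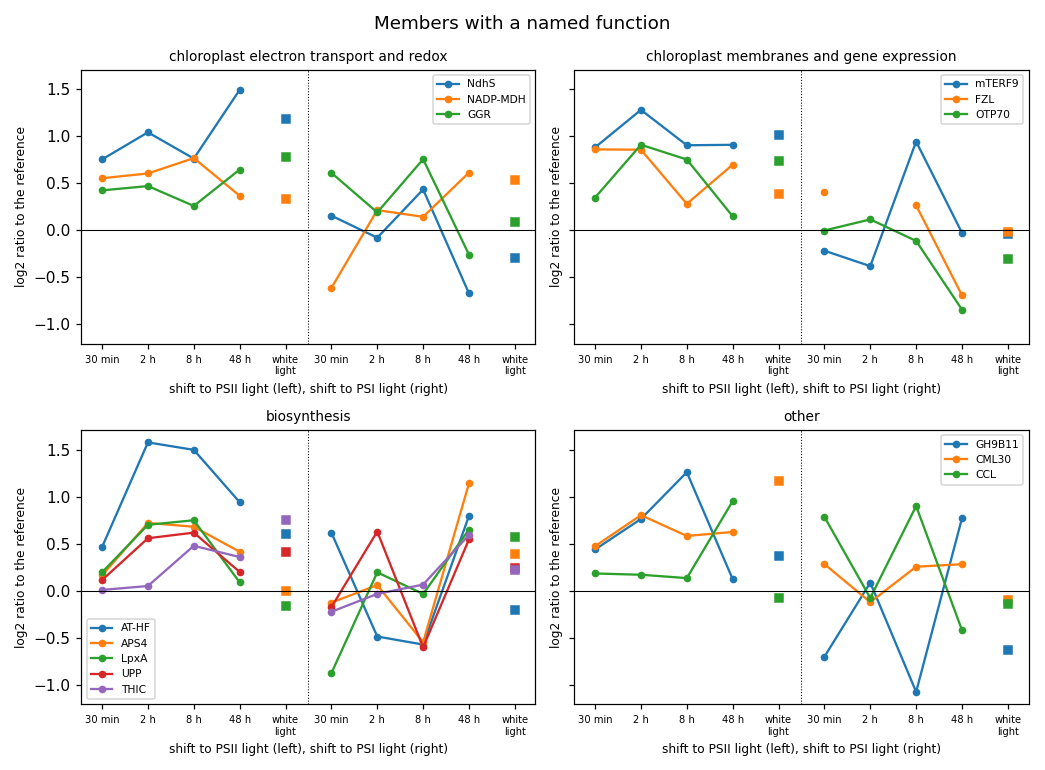
Log2 ratio to the reference of the 14 members with a named function in 4 groups, with lines joining the time points of 1 shift and squares for the white light columns (NADP-MDH is the NADP-dependent malate dehydrogenase, GGR geranylgeranyl reductase, mTERF9 is AT5G55580). All lie above 0 in PSII light by the rule, and the 5 biosynthesis genes are above 0 and the 3 genes for chloroplast membranes and gene expression below 0 at 48 h of PSI light. Of all 73 members with a value at that time, 39 are above 0 and 34 below.

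The white light column that accompanies the shift to PSII light was not used in the choice. In it 65 of 74 members (87.8%) were above 1, against 25.1% of all genes, and the member median was 1.48 against 0.777 for all genes. Against the column median all 74 members were above (47.9% of all genes). If this column has the same reference as the PSII light columns, a low reference value alone places a gene above 1 in all 5, and that part cannot be told apart from a shared response. The 17 members at 2-fold or more there (4.43% of all genes) were led by AT4G16410, AT4G38040 at 3.59 and AT2G18920 at 3.24. The 9 members below 1 were AT4G24840 at 0.819, AT3G25840 at 0.839, AT2G37750 at 0.866, AT5G59250, LpxA, CCL, AT4G32340, AT3G57630 and APS4.

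White light ratios were neither generally larger nor smaller than those in PSII light, with 37 members above their own PSII light mean and 38 above their own 48 h value. Across the 74 members the log2 white light ratio went with the mean log2 ratio in PSII light at Pearson's r = 0.662 and Spearman's rho = 0.578. This describes the genes, which are no replicates, and the columns may share their reference. The PSII light values in it are those that chose the genes. The relation was not computed over other genes, so it cannot be called particular to the members. Relative to its own mean in PSII light, the white light ratio was largest in AT4G16410 (2.09 times), AT2G26680 (1.69) and AT4G31530 (1.61). It was smallest in AT2G26110 (0.574), AT3G50180 (0.614) and AT2G46190 (0.633). AT2G26680 had 1.42, 2.27, 2.05 and 1.90 in PSII light and 3.18 in white light, whereas AT2G26110 had 1.85, 1.69, 1.96 and 1.81 in PSII light and 1.05 in white light.

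In the shift to PSI light the member medians were nearer 1 than those of all genes in each of the 5 columns. Ratios at the time points of this shift are read here against plants sampled before it, and the reference of its white light column is unknown. The member median was 0.901 at 30 min, 1.02 at 2 h, 0.970 at 8 h, 1.05 at 48 h and 1.02 in white light. Over all genes the medians were 0.700, 1.15, 0.661, 1.28 and 0.903. Where most genes were below 1 the members were above 1 more often than all genes, and where most genes were above 1, less often. No spread between experiments is available to test these differences.

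At 30 min of PSI light 23 of 73 members (31.5%) were above 1 against 12.7% of all genes, and at 8 h 32 of 73 (43.8%) against 16.2%. At 2 h it was 38 of 72 members (52.8%) against 75.8%, and at 48 h 39 of 73 (53.4%) against 73.4%. In the white light column of this shift 39 of 73 members (53.4%) were above 1 against 32.0%. Counted against the column medians, 55 members were above at 30 min (44.0% of all genes), 20 at 2 h (56.2%), 59 at 8 h (44.5%), 24 at 48 h (52.5%) and 58 in white light (51.8%). Inverting a column only turns each share into its complement. For 2 h and 48 h that gives 47.2% and 46.6% of the members above 1, against 24.2% and 26.6% of all genes. No source says that these 2 columns run the other way, so nothing is read from these shares.

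The spread of the members was compared with that of all genes. Their interquartile range on the log2 scale in PSI light was 0.538, 0.361, 0.715 and 0.954 in order of time, against 0.456, 0.351, 0.716 and 0.717 for all genes. In the white light column it was 0.430 against 0.522, so the members were more tightly packed in that column and at least about as widely spread in PSI light. A comparison with the 102 genes that were below the reference at all 4 times of PSII light shows where the members stand. Those genes had medians of 0.712, 1.15, 0.700, 1.31 and 0.853 in the 5 columns of the shift to PSI light, close to the medians of all genes. The difference from the members was not tested, because each column is 1 value per gene.

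**Figure D3:**
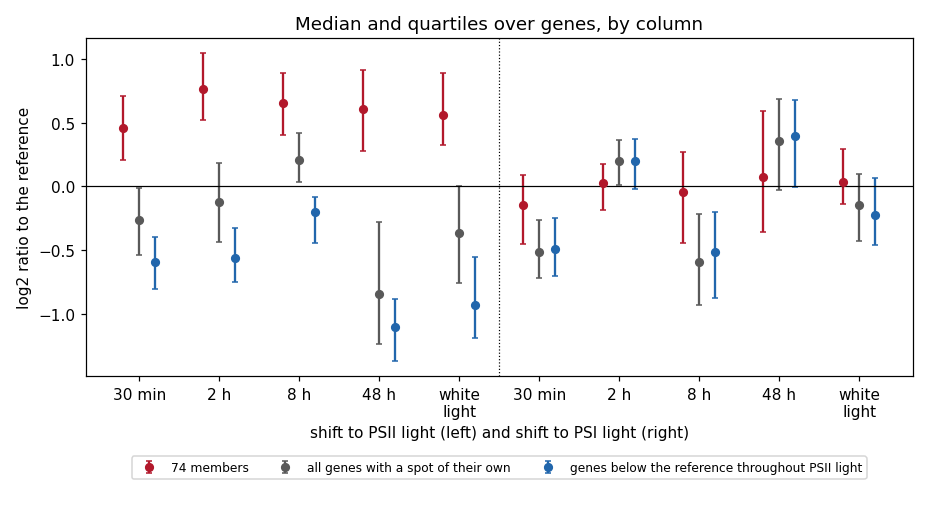
Median (points) and quartiles (bars) over genes of the log2 ratio in each column, for the 74 members, for all genes with a spot of their own, and for the 102 genes below the reference throughout PSII light. In the right 5 columns the member medians lie between -0.15 and 0.07, and those of all genes between -0.60 and 0.35.

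**Figure D4:**
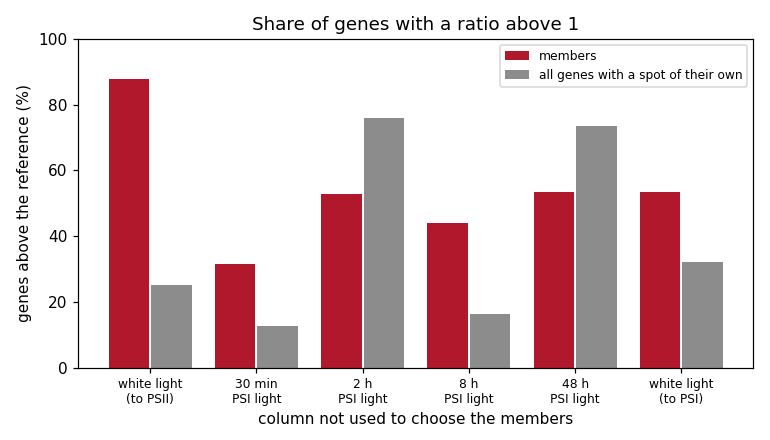
Percentage of genes with a ratio above 1 among the genes with a value, for the members and for all genes with a spot of their own, in the 6 columns that did not choose the members. The members' share is higher in both white light columns and at 30 min and 8 h of PSI light, and lower at 2 h and 48 h.

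Within the group, single genes departed far from the reference in PSI light. The 7 members at 2-fold or more above it at 1 or more times were AT3G50180, AT3G50130, AT4G32340, AT4G02580, AT4G27510, APS4 and AT4G24840. At 8 h 4 members were 2-fold or more above (1.62% of all genes). AT3G50180 was at 10.1 and its ratios in PSI light were 1.40, 1.07, 10.1 and 3.26 from 30 min to 48 h, after 2.36, 2.31, 1.77 and 1.87 in PSII light. AT3G50130 had 1.27, 1.07, 5.19 and 2.14 in PSI light and AT4G32340 had 1.31, 1.15, 5.38 and 1.99, so the 8 h value was the highest for all 3. AT4G02580 was at 2.66 at 8 h, its only value in that shift.

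AT3G50130 and AT3G50180 lie near each other on chromosome 3, with 4 genes between them, and whether their spots detect each other's transcript was not tested. In PSII light AT3G50130 had 2.36, 2.06, 1.51 and 1.40, highest at 30 min, as was AT3G50180 with 2.36. They were 2 of the 4 members at 2-fold or more at 30 min.

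At 48 h of PSI light 5 members were 2-fold or more above the reference (11.0% of all genes) and 6 were 2-fold or more below it (2.71%). The higher ones were AT3G50180, AT4G24840 at 2.88, APS4 at 2.21, AT3G50130 and AT4G27510 at 2.09. The lower ones were AT4G31530 at 0.128, AT4G19900 at 0.170, AT4G17070 at 0.237, AT4G09620 at 0.363, AT4G08940 at 0.386 and AT4G29890 at 0.498. All 6 lower genes lie on chromosome 4, which holds 22 of the 74 members, and no reason for this was tested. Over all genes 17 were 2-fold or more lower in this column, and their chromosomes were not counted. Whether the location is particular to the members is therefore unknown. Earlier in that shift the 6 lower members were nearer the reference: AT4G31530 had 0.907, 0.686 and 0.732, AT4G19900 had 1.2, 1.16 and 0.512, and AT4G17070 had 0.903, 1.12 and 0.722.

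In PSII light these 3 genes had 1.65, 1.5 and 2.00 at 48 h, each above its own value at 8 h. At the earlier times of PSI light 2-fold lower values were few. AT2G46300 and AT1G49850 (0.444) were so at 30 min (5.32% of all genes), AT3G52070 and AT5G46560 (0.472) at 2 h (0.796%), and AT4G38040, AT2G46300 and GH9B11 at 8 h (21.2%). Of the 71 members with all 4 values in PSI light, 6 were above 1 at all 4 times (2.54% of all genes) and 6 below (4.92%). Those above were AT2G18920, AT3G50180, AT3G50130, AT1G13990, AT5G06990 and AT4G32340. Those below were AT2G31800, AT1G35510, AT2G04540, AT5G59250, AT4G31530 and AT4G29890.

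Only AT1G13990 and AT5G06990 were above 1 in all 10 columns (0.544% of all genes). AT1G13990 had 1.64, 2.21, 1.86 and 2.11 in PSII light, 2.71 in white light, 1.71, 1.23, 1.44 and 1.05 in PSI light and 1.21 in the second white light column. AT5G06990 had 1.45, 2.14, 1.80 and 1.62, then 1.94, and in PSI light 1.13, 1.09, 1.25 and 1.16, then 1.12. AT1G13990 was also the second highest member at 30 min of PSI light. Among the white light values filed under PSI light, only AT2G04540 passed 2-fold, at 2.05 (0.161% of all genes), followed by AT1G49850 at 1.97 and AT4G16410, and GH9B11 was lowest at 0.645.

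The course of the members between 8 h and 48 h of PSII light was set beside their values in PSI light. Both of these PSII light columns belong to the rule that chose the members, so the relation is described and was not tested. Of the 37 members whose ratio was higher at 48 h than at 8 h of PSII light, 10 were above 1 at 48 h of PSI light, with a median of 0.825. Of the 36 others with a value, 29 were above 1, with a median of 1.34. The same split of the other genes with a spot of their own gave 8 of 22 (median 0.771) and 388 of 491 (median 1.32). It thus went the same way there, but with only 22 genes on the side that was higher at 48 h. Among the members the order was the reverse at 30 min of PSI light, with 16 of 37 and 7 of 36 above 1, and at 8 h, with 21 of 36 and 11 of 37. The difference in log2 ratio between 48 h and 8 h had Pearson's r = -0.502 and Spearman's rho = -0.551 with the 48 h column of PSI light over 73 members.

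The same difference had r = 0.482 with 30 min, 0.324 with 8 h, -0.112 with 2 h and 0.0656 with white light of that shift. Over the other genes with a spot of their own, r was 0.466 with 30 min, 0.515 with 8 h, -0.338 with 2 h, -0.193 with 48 h and 0.247 with white light. For 48 h, Spearman's rho over the other genes was -0.0592, so the rank relation of the members in that column was close to absent there. The signs of r were the same in members and other genes, and the difference between them was not tested. If both columns share 1 reference value, the difference does not contain it, but the points of a column share the same filters, and genes are not replicates. At one end of this range GH9B11 went from 2.40 at 8 h to 1.09 at 48 h of PSII light and stood at 1.71 after 48 h in PSI light. At the other end, CCL had 1.10, 1.94 and 0.747 in the same columns.

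**Figure D5:**
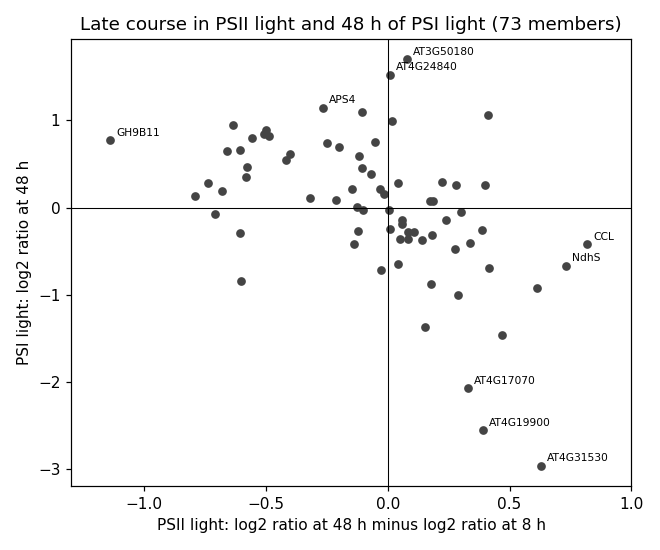
Log2 ratio at 48 h of PSI light against the log2 ratio at 48 h minus that at 8 h of PSII light, for the 73 members with a value. Of the 37 members right of the vertical line 10 are above the reference on the vertical axis, and of the 36 others 29 are. Both PSII light columns of the horizontal axis were used to choose the members.

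Members were found on all 5 chromosomes, with 22 of 117 genes that have a spot of their own on chromosome 4 (18.8%), 19 of 119 on chromosome 2 (16.0%), 12 of 124 on chromosome 3 (9.68%), 14 of 156 on chromosome 1 (8.97%) and 7 of 126 on chromosome 5 (5.56%). Pairs of members with at most 20 genes between them numbered 7, of 271 such pairs of measured genes. Another 55 pairs held 1 member, so 20.3% of the members' measured neighbours were members, against 11.5% of all genes, and this difference was not tested. The closest were OTP70 and AT4G25290, with 1 gene between them, then AT3G50130 and AT3G50180, and AT1G50770 and AT1G50880 with 9. OTP70 and AT4G25290 differed in PSII light, where AT4G25290 had 1.71, 1.75, 1.51 and 1.71, and both were below the reference at 48 h of PSI light, AT4G25290 at 0.542. Spots next in number to a member's spot were above 1 at all 4 times of PSII light in 20 of 97 cases (20.6%), against 14.6% of all spots with 4 values. Whether spot numbers follow positions on the filter is unknown here, and a part of filter position in the choice of members was not tested.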

How the data were processed

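The deposited table holds linear ratios of a condition to a reference for each of 3262 spots, per the labels; the steps behind them (signals, background correction, scaling, how 3 experiments became 1 value) are unknown. Labelled cDNA was made from 25 to 30 µg of total RNA with primers for 1827 genes and hybridised to nylon filters with 3292 gene-sequence tags, per the labels' protocols. Depth does not apply to filters, and their number limits the precision.

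The platform annotation pairs 645 spots with 1 gene, 829 with several and 1788 with none. Symbols were updated by gene identifier through the TAIR10.1 gene table, which held 643 of the 645 and all 74 members. The 2 spots of AT2G25870 were averaged, which left 644 genes. A value of 0 counted as missing. Values are ratios as deposited; centred counts use the median of all spots of a column. With 1 column per condition no p-value was computed. The gene table supplied names, chromosomes and gene order only, and no sequence was printed. Every member could be named; the 10 highest, the extremes of each other column, genes at 2-fold or more lower, functional names and the edges of the rule are given with values. Promoter motifs were planned and not searched, because no promoter sequence was used here. Members and lists were chosen with earlier results of these data known, and the relatives of named members and the neighbours were chosen after their values were seen. The calculation of the rule was run on simulated ratios with members planted to meet it. This checks the calculation and not the choice of genes. Python 3.11.15, numpy 2.4.6 and pandas 2.3.3 were used.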

Additional observations from a re-analysis of the deposited data

How the results depend on the processing

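The size of the group depended on the 48 h column of PSII light and on centring: 124 genes met the rule without the 48 h column, 137 when columns were centred on their medians (63 of the 74 among them), and 38 when the ratio had to exceed 1.2. Without the 30 min, 2 h or 8 h column the numbers were 87, 74 and 76. The members at 2-fold or more at all 4 times numbered 1, and 3 after centring, 18 at 1.5-fold and 0 at 3-fold. Centring the columns and quantile normalization moved the counts above the reference in PSI light, to 55 and 54 from 23 at 30 min, to 20 and 20 from 38 at 2 h, to 59 and 55 from 32 at 8 h, and to 24 and 24 from 39 at 48 h. In white light the counts went to 74 and 71 from 65 in the shift to PSII light, and to 58 and 56 from 39 in the shift to PSI light. These stayed within 1.5 times of the main counts, those from 39 only narrowly. All counts over the 71 members with 10 values also stayed within 1.5 times. Inverted, the counts at 2 h and 48 h in PSI light were 34 each. A count near the middle stays near it when inverted, so this does not show independence from the direction of the ratio. The comparison with all genes turned round in both columns. Of 29 alternatives 14 moved a count by more than 1.5 times. The planned filter on low levels was not run, since a ratio has no level. No paired analysis was possible because the labels give no replicate numbers and each condition has 1 column. Signal over background is unknown, so ratios of faint spots cannot be told from those of bright ones.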
